A study of Mus musculus with 11 samples.

Results

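The genes described here build, cross-link and remodel the extracellular matrix of fat or mark the fibroblasts that make it: collagens, glycoproteins, small proteoglycans, matricellular proteins, matrix proteases with their inhibitors, and the fibroblast markers Pdgfra and Pi16. Of 40 listed genes, 39 were found among the 18193 genes for which a probe set with a single gene symbol was present, each taken by its brightest such probe set over all arrays; Fbn1 was not analysed here. They were measured in epididymal fat, a visceral depot beside the testis, of male C57BL/6 mice aged 3 months on standard chow, with 1 one-colour Affymetrix array for each of 11 samples. Wild-type mice (B1+/+) gave 4 arrays, mice without the kinin B1 receptor (B1-/-) gave 4, and fat rescue mice (aP2B1-B1-/-), which lack the endogenous receptor but carry one expressed selectively in fat, gave 3. The aP2 in that name is the promoter of Fabp4, a gene of fat cells; neither the wild-type nor the knockout mice are labelled as carrying it. The comparisons ask what loss of the receptor, and its return to fat, go with in the matrix genes.

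In fat, a basement membrane of collagen IV, laminins and nidogen surrounds each adipocyte and blood vessel, and an interstitial matrix of fibrillar collagens I, III and V and of microfibrillar collagen VI lies between the cells. Fibroblasts and adipose progenitors make most of the interstitial matrix, while adipocytes and endothelial cells also make basement membrane. Proteases such as Mmp2 and Mmp14 and inhibitors such as Timp1 and Timp2 set its turnover.

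Arrays of a genotype are labelled as biological replicates; where samples did not come from separate animals, p-values measure only the spread between these samples. The authors had scaled every array to a trimmed mean signal of 200. Array medians were 41.3 to 45.1 in wild type, below those of knockout (46.5 to 48.8) and fat rescue (45.6 to 46.6). The ratio of 3' to 5' signal of the control gene actin was 1.65 to 1.83 in wild type. It was 1.53 to 1.69 in knockout and 1.47 to 1.56 in fat rescue, the last without overlap with wild type. For Gapdh this ratio was 0.86 to 1.03 and the groups overlapped. The part of these ratios in the results was not tested. Adipocyte markers Fabp4, Adipoq and Lpl were bright in all arrays, no marker of the tissue lists was listed at 0, and of 9 epididymis genes on the array only 1 (Rnase10) passed the brightness filter. Bdkrb1, the gene of the receptor, read 3.7 to 32.2 in wild-type arrays, 4.8 to 29.7 in those of the knockout, and 57.8 to 73.4 in fat rescue; its probe set is not located relative to the deleted part, so it does not check the first 2 labels. For the matrix genes, wild-type array 1 and knockout array 1 stood apart from the rest, as described below, and the main results that rest on them are given with and without them.

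None of the 39 genes differed between genotypes at an adjusted p under 0.05 in limma, in any of the 3 comparisons or in the F test over the 3 genotypes. In knockout against wild type the background of such calls was 0.0393% of 12709 genes. At an unadjusted p under 0.05, 5 of the 39 were called (Col4a1, Col4a2, Nid1, Dpt and Htra3), each with a lower mean in knockout, where 7.3% of all genes were called and 3.36% with a lower mean. The groups overlapped in every one of the 39 genes, while 3.84% of all genes had groups that do not overlap. In fat rescue against knockout the background was 0% at the adjusted threshold; at an unadjusted p under 0.05 none of the 39 was called against 3.81% of all genes, and 1 (Lama2, higher in fat rescue) had groups that do not overlap, against 4.93% in either direction and 2.84% in that one. In fat rescue against wild type the adjusted background was 0.0157%. There 8 of the 39 had an unadjusted p under 0.05 against 8.09% of all genes, 4 with higher means in fat rescue (Fbln1, Fmod, Thbs1, Thbs2; background 4.6%) and 4 with lower means (Col4a2, Nid1, Dpt, Htra3; background 3.49%). Groups did not overlap in 4 against 9.24%: Thbs2 was higher in fat rescue (background 5.74%), and Col5a2, Sparc and Dpt were lower (background 3.5%). The F test called 0.0393% of all genes at the adjusted threshold, and 4 of the 39 at an unadjusted p under 0.05 against 6.41%. Knockout and fat rescue are both set against the same 4 wild-type arrays, so the 2 comparisons share them.

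The median difference of the 39 genes lay close to that of all genes with all 11 arrays. It was 0.02 on the log2 scale in knockout against wild type (20 with higher and 19 with lower means; all genes 0.02, of which 53.7% had higher means), -0.03 in fat rescue against knockout (18 higher, 21 lower; all genes 0.01 and 52.6% higher) and 0.03 in fat rescue against wild type (22 higher, 17 lower; all genes 0.03 and 55.7% higher). Centring each array on its own median moved all genes together: knockout against wild type then had a median of -0.13 in these genes and -0.13 in all genes (10 higher, 29 lower), and fat rescue against wild type -0.07 and -0.07 (10 higher, 29 lower). Single arrays turned the sign of these small medians. Without wild-type array 1 the knockout median was -0.08 (12 higher, 27 lower; all genes 0.01), without knockout array 1 it was -0.10 (11 higher, 28 lower; all genes 0.01), and without both, an alternative added after the data had been seen, it was -0.23 (5 higher, 34 lower; all genes 0.01). Fat rescue against knockout had a median of 0.10 without knockout array 1 (31 higher, 8 lower), and fat rescue against wild type -0.10 without wild-type array 1 (11 higher, 28 lower).

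**Figure D1:**
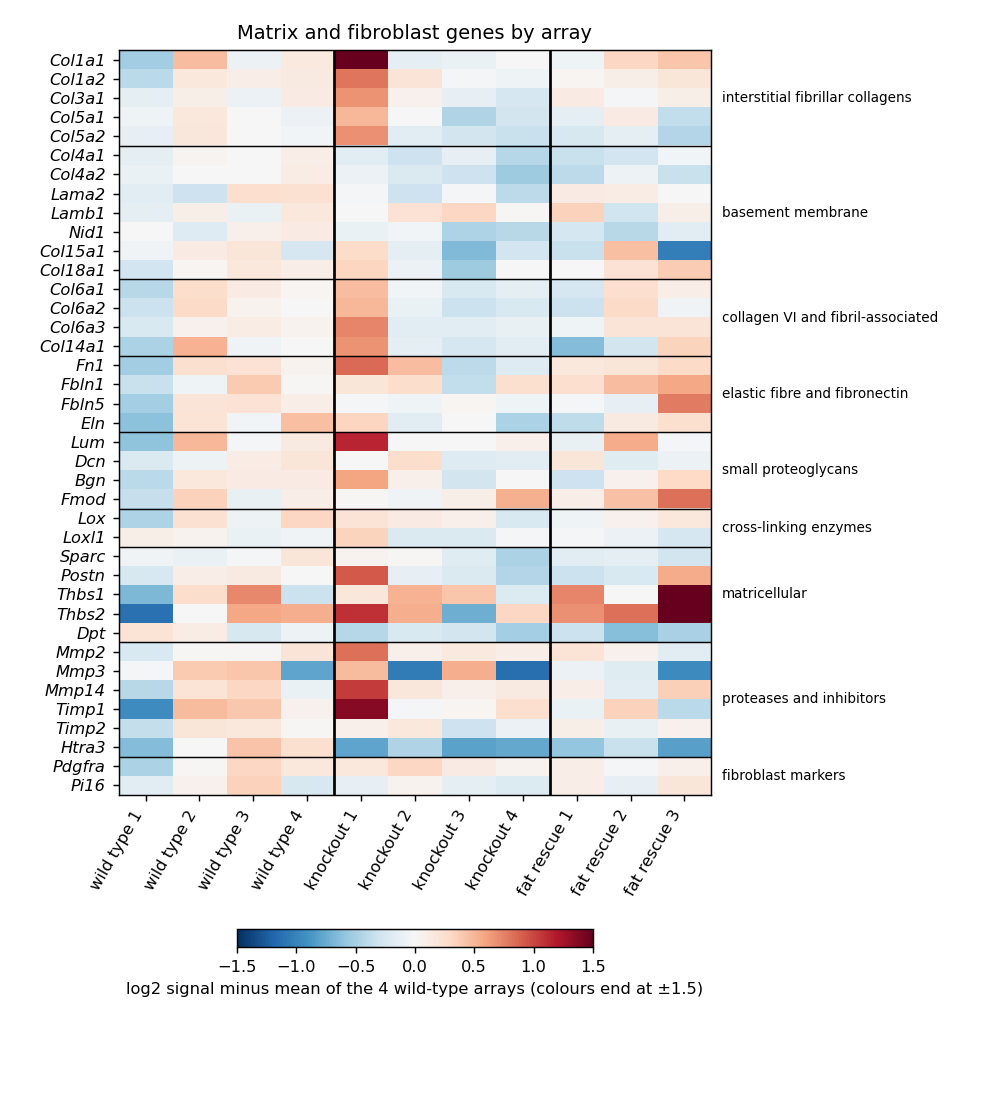
Each row is 1 of 39 matrix and fibroblast genes, grouped by role, and each column is 1 array; colour gives the log2 signal minus the mean of the 4 wild-type arrays, with colours ending at ±1.5. Knockout array 1 is the reddest column in the fibrillar collagen and collagen VI rows, wild-type array 1 is the bluest of the wild-type columns, and fat rescue array 3 stands out in Thbs1 and Thbs2.

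In the fibrillar collagens, the rope-like fibres of interstitial matrix, 1 knockout array stood above the rest. Col3a1, the chain of collagen III, read 9362.6, 10958.7, 9664.9 and 11222.3 in the wild-type arrays, 16413.7, 10751.9, 9430.4 and 8629.7 in the knockout arrays, and 11188.6, 10131.6 and 10884.1 in the fat rescue arrays. Knockout array 1 was the highest of the 11, the other arrays lay close together by this probe set, and the groups overlapped. The log2 difference of knockout from wild type was 0.09 ± 0.16 (SE, limma, adjusted p = 0.916, and exact permutation p = 0.857). The dimmer probe set of Col3a1 gave 0.42 and spread from 461.9 to 989.6 outside knockout array 1. In it knockout array 1 was 2.46 times the mean of the other knockout arrays, against 1.71 times by the brightest. Col5a2, a chain of collagen V, which starts and limits fibril growth, read 1792.8, 2190.3, 1945.6 and 1886.8 in the wild-type arrays, 3142.3, 1740.2, 1614.2 and 1540.4 in the knockout arrays, and 1655.6, 1772.3 and 1434.1 in the fat rescue arrays. All 3 fat rescue arrays lay below all 4 wild-type arrays, a difference of -0.27 ± 0.20 (adjusted p = 0.749; exact permutation p = 0.0571, where 0.0286 is the smallest possible), and its dimmer probe set read the other way, at 0.39. Col1a1, a chain of collagen I, named after its values were seen, read 1378.7, 2729.4, 1865.9 and 2188.0 in the wild-type arrays, 6910.6, 1785.6, 1850.4 and 1990.2 in the knockout arrays, and 1898.8, 2460.3 and 2632.3 in the fat rescue arrays. Knockout array 1 was 3.68 times the mean of the other 3 knockout arrays (2.07 times by the dimmer probe set), and those 3 lay within the wild-type range. The mean difference of knockout from wild type in Col1a1 was 0.39 ± 0.36 (adjusted p = 0.820).

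The collagen I and III promoters are shown because both genes had their highest signal in knockout array 1. The windows run from 250 bases before to 50 after the RefSeq transcription start (GRCm38.p6), with CCAAT or its reverse complement ATTGG in capitals; the first is Col1a2, chr6:4505368-4505667 on the + strand, and the other Col3a1, chr1:45311288-45311587 on the + strand.
Col1a2: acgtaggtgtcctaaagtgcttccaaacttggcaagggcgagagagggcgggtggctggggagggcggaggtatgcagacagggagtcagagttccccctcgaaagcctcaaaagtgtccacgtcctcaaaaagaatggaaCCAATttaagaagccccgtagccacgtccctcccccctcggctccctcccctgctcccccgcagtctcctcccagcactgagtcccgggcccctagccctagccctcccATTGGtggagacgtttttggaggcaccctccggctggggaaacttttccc
Col3a1: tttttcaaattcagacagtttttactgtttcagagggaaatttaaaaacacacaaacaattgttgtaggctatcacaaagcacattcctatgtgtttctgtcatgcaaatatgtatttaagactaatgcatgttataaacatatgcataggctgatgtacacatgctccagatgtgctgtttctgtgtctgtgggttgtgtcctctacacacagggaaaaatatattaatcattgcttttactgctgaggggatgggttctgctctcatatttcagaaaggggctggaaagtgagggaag
The Col1a2 window holds CCAAT 109 bases before the start and ATTGG at the start, and these letters are not in the Col3a1 window. On either strand CCAAT was in 37.4% of 32851 RefSeq promoter windows of this length, and in 15 of 33 windows of the 28 matrix genes matched by symbol. GGGCGG, or CCGCCC on the other strand, was in 16 of the 33 and in 35.7% of all windows. TATAAA, or TTTATA, was in 5 and in 13.6%, and TGACTCA, or TGAGTCA, in 2 and in 5.20%. These matches describe letters, not bound sites.

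Of the 7 basement membrane genes, 3 had lower means in knockout than in wild type at an unadjusted p under 0.05. Col4a1 and Col4a2 encode the chains that form the collagen IV network. Col4a1 read 7271.3, 8302.6, 8083.4 and 8599.4 in the wild-type arrays, 7200.9, 6492.9, 7399.5 and 6001.7 in the knockout arrays, and 6401.1, 6588.1 and 7827.4 in the fat rescue arrays. All wild-type arrays but array 1 lay above every knockout array; knockout differed from wild type by -0.25 ± 0.10 (adjusted p = 0.667; exact permutation p = 0.0571). Col4a2 read 4226.7, 4517.0, 4567.6 and 4899.2 in the wild-type arrays, 4268.5, 3921.4, 3651.4 and 3152.8 in the knockout arrays, and 3453.5, 4328.8 and 3610.1 in the fat rescue arrays. Again only wild-type array 1 lay below the highest knockout array. The differences from wild type were -0.29 ± 0.10 in knockout (adjusted p = 0.650; exact permutation p = 0.0571) and -0.27 ± 0.11 in fat rescue (adjusted p = 0.593; exact permutation p = 0.0571). The dimmer probe set of Col4a1 gave -0.27 in knockout against wild type, close to the brighter one. Nid1, the nidogen that links collagen IV to laminin, was named after its values were seen and read 6554.8, 5748.0, 6943.0 and 7137.2 in the wild-type arrays, 6138.4, 6413.7, 4776.3 and 4937.1 in the knockout arrays, and 5471.1, 4928.1 and 5833.9 in the fat rescue arrays. Its groups overlapped; the differences from wild type were -0.25 ± 0.11 in knockout (adjusted p = 0.683) and -0.28 ± 0.12 in fat rescue (adjusted p = 0.594).

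Col4a1 and Col4a2 lie head to head on chromosome 8, with their RefSeq starts 21 bases apart on opposite strands (GRCm38.p6). Their promoter windows, shown for this shared stretch, are chr8:11312777-11313076 on the - strand for Col4a1 and chr8:11312555-11312854 on the + strand for Col4a2. Capitals mark the 78 bases that both windows hold.
Col4a1: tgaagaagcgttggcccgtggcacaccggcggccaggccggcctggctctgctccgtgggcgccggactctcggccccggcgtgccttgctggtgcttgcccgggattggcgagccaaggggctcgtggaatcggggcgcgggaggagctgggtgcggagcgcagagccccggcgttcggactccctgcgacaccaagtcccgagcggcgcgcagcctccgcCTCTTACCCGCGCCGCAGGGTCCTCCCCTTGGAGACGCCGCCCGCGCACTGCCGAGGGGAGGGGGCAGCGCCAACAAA
Col4a2: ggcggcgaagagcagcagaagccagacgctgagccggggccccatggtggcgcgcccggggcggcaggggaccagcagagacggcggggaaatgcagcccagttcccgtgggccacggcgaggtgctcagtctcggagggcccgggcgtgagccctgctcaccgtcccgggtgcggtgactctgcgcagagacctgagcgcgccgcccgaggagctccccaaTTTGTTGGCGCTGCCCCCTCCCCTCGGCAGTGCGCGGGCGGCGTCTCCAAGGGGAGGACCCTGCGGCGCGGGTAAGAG
Across arrays the 2 genes had a correlation of 0.41 by their brightest probe sets once genotype means were removed. With Col4a1 taken as the mean of its 2 probe sets, and Col4a2 by its only 1, it was 0.77 and passed (adjusted permutation p = 0.00888).

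The remaining basement membrane genes did not share a direction by their brightest probe sets. In knockout Lamb1 alone had a higher mean than wild type, and Lama2 was at -0.19. Lama2, a laminin chain, read 499.6, 495.3 and 460.9 in fat rescue, above all knockout arrays at 449.6, 370.3, 454.7 and 350.6, while wild type spanned 369.0 to 545.4; fat rescue differed from knockout by 0.26 ± 0.15 (adjusted p = 0.998; exact permutation p = 0.114). Lamb1, another laminin chain, was 0.13 ± 0.13 above wild type in knockout (limma, adjusted p = 0.830), but its dimmer probe sets read -0.14 and -0.13. The collagens Col15a1 and Col18a1, which lie in basement membrane zones, differed from wild type by -0.20 ± 0.26 and -0.08 ± 0.16 in knockout. Col15a1 was lowest of all arrays in fat rescue array 3, at 605.7, against 987.7 and 1699.2 in the other 2 fat rescue arrays. The 7 genes had a median difference of -0.20 in knockout and -0.22 in fat rescue against wild type, with all 7 overlapping in the first. Of them 6 had lower means than wild type in knockout and 4 in fat rescue. Over all genes 53.7% and 55.7% had higher means in these comparisons. Markers of adipocytes, which also make basement membrane, had lower means than wild type in 10 of 10 genes in knockout (median -0.22). Of these, 3 had an unadjusted p under 0.05 in limma, against 3.36% of all genes with lower means, and none passed the adjusted threshold. In fat rescue 9 of 10 were lower (median -0.12, none at either threshold). After quantile normalization 8 and 7 of 10 adipocyte markers were lower, and centred on array medians 10 and 10. Their summed signal was 100657 to 135422 in wild type, 92659 to 126733 in knockout and 100053 to 120558 in fat rescue, and their part in the result was not tested.

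**Figure D2:**
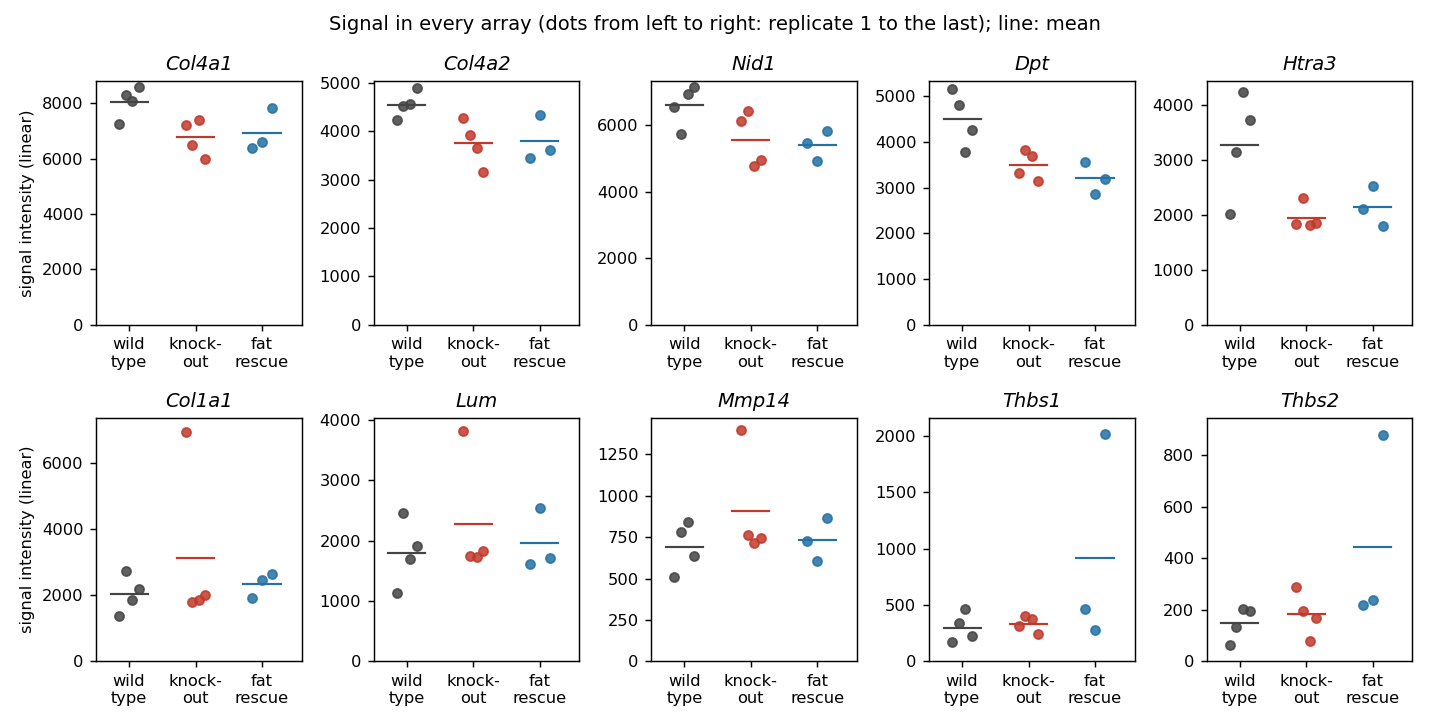
Signal intensity on a linear axis from 0 in every array for 10 matrix genes, with a line at the mean of each genotype. In the upper row wild-type means lie above knockout and fat rescue means with overlapping dots, except for Dpt in fat rescue; in the lower row 1 knockout array (Col1a1, Lum, Mmp14) or 1 fat rescue array (Thbs1, Thbs2) lies far above the others.

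Collagen VI, a beaded microfibril abundant around adipocytes, and Col14a1, a fibril-associated collagen, had nearly equal genotype means. Col6a1 read 2112.4, 3401.6, 3067.0 and 2892.7 in the wild-type arrays, 3906.4, 2756.9, 2418.2 and 2556.9 in the knockout arrays, and 2371.9, 3370.5 and 3022.1 in the fat rescue arrays. The groups overlapped throughout, and knockout differed from wild type by 0.02 ± 0.17 (adjusted p = 0.990; exact permutation p = 0.943). Col6a2 and Col6a3 differed by -0.04 ± 0.18 and 0.08 ± 0.18. Col14a1 read 266.7, 531.3, 356.1 and 368.7 in the wild-type arrays, 588.4, 335.6, 310.8 and 329.6 in the knockout arrays, and 235.8, 305.2 and 464.7 in the fat rescue arrays. Its highest array was knockout array 1 and its lowest a fat rescue array, and no pair of genotypes differed beyond the spread between arrays (adjusted p from 0.880 to 0.998).

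Fibronectin and the elastic fibre genes were likewise spread within genotypes. Fn1, the cell-adhesive glycoprotein fibronectin, read 1840.8, 3115.7, 3069.9 and 2731.6 in the wild-type arrays, 4755.2, 3640.2, 2005.5 and 2304.4 in the knockout arrays, and 2943.7, 2976.2 and 3222.5 in the fat rescue arrays. Knockout held both its highest array and 2 of its lower ones, and its difference from wild type was 0.18 ± 0.24 (adjusted p = 0.881). Fbln1, fibulin-1, a glycoprotein of elastic fibres and basement membranes, read 411.2, 495.5, 681.0 and 524.3 in the wild-type arrays, 587.6, 624.4, 400.9 and 612.8 in the knockout arrays, and 617.5, 716.8 and 776.5 in the fat rescue arrays. A single wild-type array reached into the fat rescue range; fat rescue differed from wild type by 0.43 ± 0.18 (adjusted p = 0.588; exact permutation p = 0.0857), and its dimmest probe set read -0.35. Fbln5, which assembles elastic fibres, was at 1879.5 in fat rescue array 3 and between 765.0 and 1274.2 in the other 10 arrays. Eln, elastin itself, had means of 745.5 ± 218 (SD, n = 4), 694.5 ± 160 (n = 4) and 730.0 ± 158 (n = 3) in wild type, knockout and fat rescue.

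Among small proteoglycans, which coat collagen fibrils and set their width, decorin was steady and lumican was not. Dcn read 11563.1, 12704.3, 14481.5 and 15256.4 in the wild-type arrays, 13330.2, 16090.2, 11701.5 and 12036.0 in the knockout arrays, and 15249.5, 11795.8 and 12620.9 in the fat rescue arrays. The groups shared 1 range, with differences from wild type of -0.03 ± 0.13 in knockout and -0.03 ± 0.14 in fat rescue. Lum, named after its values were seen, reached 3823.4 in knockout array 1, 2.16 times the mean of the other 3 knockout arrays, and was lowest at 1141.7 in wild-type array 1. Bgn, biglycan, had the same highest and lowest arrays, at 5179.5 and 2586.8. Fmod, fibromodulin, read 671.1, 1087.3, 792.3 and 913.2 in the wild-type arrays, 865.7, 818.8, 905.5 and 1230.7 in the knockout arrays, and 910.5, 1152.0 and 1510.7 in the fat rescue arrays. The groups overlapped, and fat rescue differed from wild type by 0.45 ± 0.19 (adjusted p = 0.595; exact permutation p = 0.143); all 5 dimmer probe sets had the same sign, from 0.22 to 0.47.

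The cross-linking enzymes Lox and Loxl1, which oxidise lysines of collagen and elastin, hardly differed between genotypes. Loxl1 read 1985.0, 1936.7, 1741.8 and 1789.9 in the wild-type arrays, 2350.9, 1594.6, 1600.6 and 1827.9 in the knockout arrays, and 1827.3, 1749.8 and 1566.2 in the fat rescue arrays. The groups overlapped, with differences of -0.03 ± 0.12 in knockout and -0.12 ± 0.13 in fat rescue from wild type (adjusted p = 0.963 and 0.832). Lox differed from wild type by 0.05 ± 0.15 and 0.05 ± 0.17.

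The matricellular genes, whose products act on cells and fibrils more than they build structure, held the highest differences of fat rescue from wild type. Dpt, dermatopontin, which binds decorin and speeds collagen fibril formation, read 5146.7, 4810.5, 3786.0 and 4247.7 in the wild-type arrays, 3314.1, 3824.2, 3687.9 and 3140.0 in the knockout arrays, and 3565.8, 2866.2 and 3179.4 in the fat rescue arrays. Every fat rescue array was below every wild-type array, and 1 knockout array exceeded the lowest wild-type array. The differences from wild type were -0.36 ± 0.11 in knockout (adjusted p = 0.574; exact permutation p = 0.0571) and -0.49 ± 0.12 in fat rescue (adjusted p = 0.320; exact permutation p = 0.0571). Over 24 alternatives the second ranged from -0.59 to -0.40, with adjusted p from 0.220 to 0.855. In bulk fat, fewer cells of a type and less RNA per cell cannot be told apart.

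Sparc, which binds collagen IV and chaperones collagen outside cells, read 16348.8, 15785.3, 16678.9 and 19298.9 in the wild-type arrays, 17638.3, 17210.4, 15012.8 and 12247.2 in the knockout arrays, and 15129.9, 15499.1 and 14032.0 in the fat rescue arrays. Fat rescue lay just below wild type without overlap, at -0.19 ± 0.13 (adjusted p = 0.722; exact permutation p = 0.0571). Postn, periostin, reached 3195.4 in knockout array 1 and 2475.3 in fat rescue array 3, against 1247.5 to 1855.4 in the other 9 arrays. Thrombospondins, named after their values were seen, bind cells and matrix and restrain vessel growth, and Thbs1 also activates latent TGF-beta. Thbs1 read 176.6, 337.9, 462.2 and 225.4 in the wild-type arrays, 315.9, 404.0, 373.6 and 244.1 in the knockout arrays, and 465.4, 280.5 and 2015.0 in the fat rescue arrays. Thbs2 read 62.0, 134.2, 201.6 and 196.6 in the wild-type arrays, 288.9, 197.2, 80.8 and 166.8 in the knockout arrays, and 217.2, 239.3 and 878.7 in the fat rescue arrays. Fat rescue array 3 was 5.40 times the mean of the other 2 in Thbs1 (4.88 times by its dimmer probe set) and 3.85 times in Thbs2 (1.61 and 4.42 times by its dimmer probe sets). Thbs1 in fat rescue differed from wild type by 1.19 ± 0.52 (adjusted p = 0.595; exact permutation p = 0.171) and by 0.36 without that array. For Thbs2 the 3 fat rescue arrays lay above all wild-type arrays by the brightest probe set. The difference was 1.41 ± 0.54 (limma, adjusted p = 0.575, and exact permutation p = 0.0286, the smallest possible) and 0.76 without that array. By both dimmer probe sets of Thbs2 fat rescue overlapped wild type, and the mean of probe sets gave a difference of 0.87. Endothelial markers were also at their highest in fat rescue array 3, with a summed signal of 13048.7 against 10064.6 to 12331.0 in the other 10 arrays, and their part in the result was not tested.

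**Figure D3:**
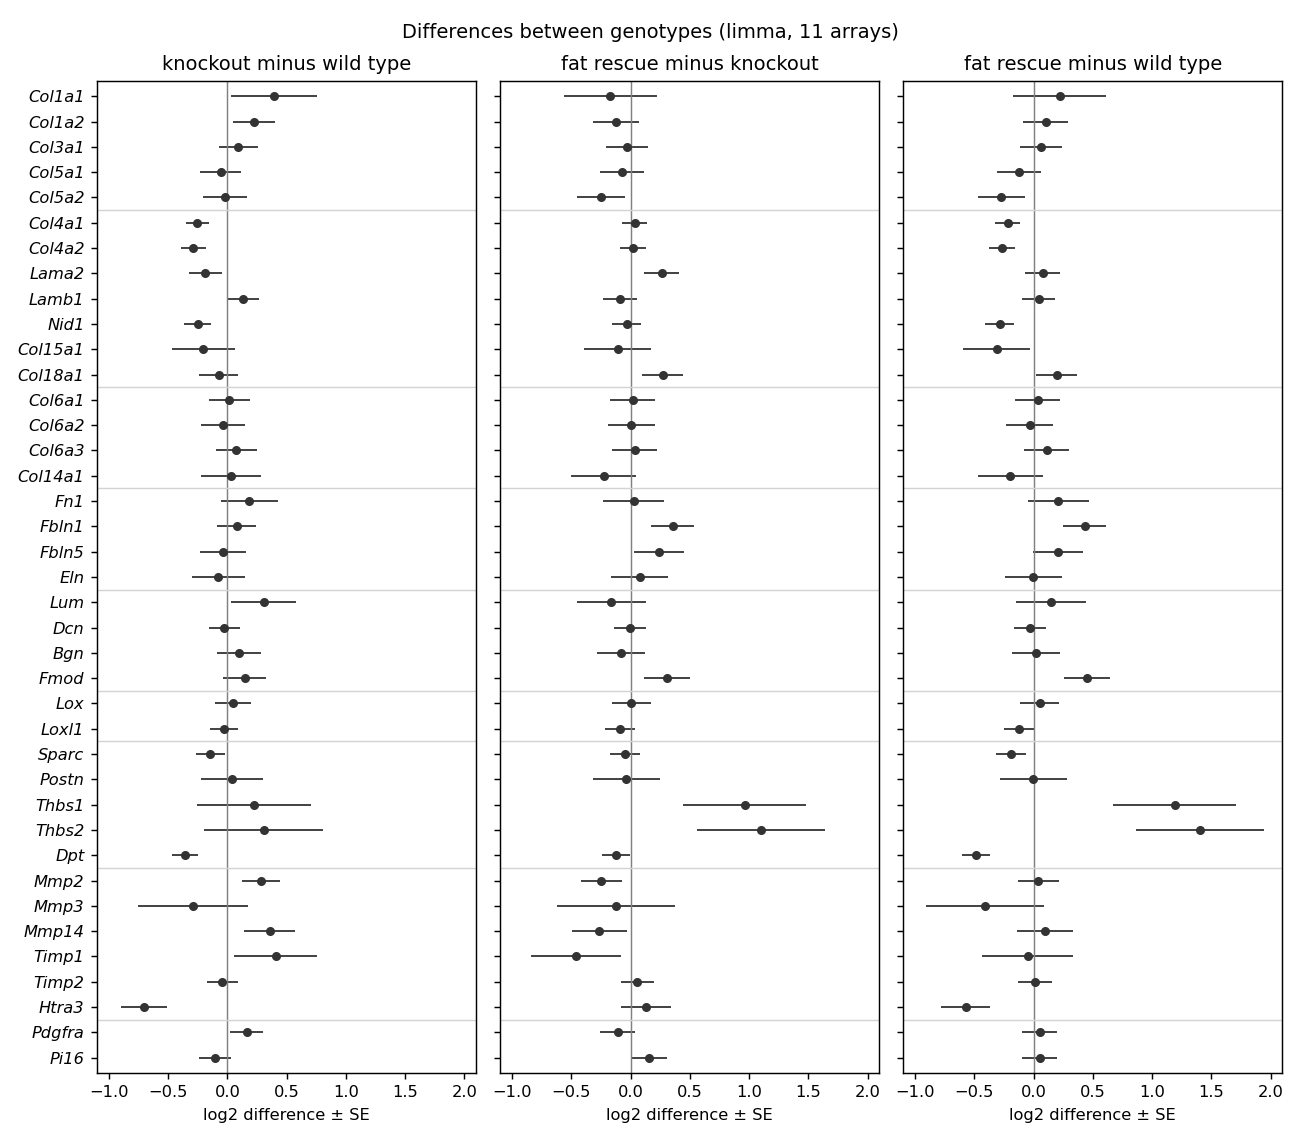
Differences between genotypes on the log2 scale, with standard errors, for 39 matrix genes in the order of their roles, from 1 limma fit of 11 arrays. Most points lie within 1 or 2 standard errors of 0; Dpt and Htra3 lie to the left in both comparisons with wild type, and Thbs1 and Thbs2 to the right in both comparisons of fat rescue.

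Of the proteases and inhibitors, Htra3 had the largest difference in knockout. It encodes a secreted serine protease that cleaves decorin, biglycan and fibronectin and restrains TGF-beta signalling. Htra3 read 2014.8, 3144.9, 4249.7 and 3740.0 in the wild-type arrays, 1832.8, 2308.6, 1822.3 and 1856.7 in the knockout arrays, and 2112.7, 2523.0 and 1806.4 in the fat rescue arrays. Wild-type arrays 2, 3 and 4 lay above every other array, while wild-type array 1 lay among the knockout and fat rescue arrays. The means were 3287 ± 961 (SD, n = 4), 1955 ± 236 (n = 4) and 2147 ± 360 (n = 3), with differences from wild type of -0.70 ± 0.19 in knockout (adjusted p = 0.479; exact permutation p = 0.0571) and -0.57 ± 0.21 in fat rescue (adjusted p = 0.537; exact permutation p = 0.143). Without wild-type array 1 the knockout difference was -0.92 and passed (limma, adjusted p = 0.0266), as it did without wild-type array 1 and fat rescue array 1 together (adjusted p = 0.0396); over 24 alternatives adjusted p ranged from 0.0266 to 0.846. Its dimmer probe sets read -0.54 and -0.02 in knockout against wild type.

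Timp2, an inhibitor that also helps Mmp14 activate pro-Mmp2, read 3156.3, 4618.4, 4540.3 and 4103.0 in the wild-type arrays, 4266.4, 4512.2, 3273.2 and 3817.5 in the knockout arrays, and 4301.8, 3758.5 and 4251.8 in the fat rescue arrays. Wild-type array 1 was the lowest of the 11, and no difference exceeded 0.06 in size by this probe set (adjusted p from 0.952 to 0.998). A dimmer probe set of Timp2 read 2498.3 to 3940 in wild type, 3119.2 to 4407.3 in knockout and 4023.5 to 4659.4 in fat rescue. By it fat rescue lay above wild type without overlap. By the other dimmer probe sets past the filter fat rescue and wild type overlapped. Mmp14, a membrane-bound collagenase, and Mmp2, a gelatinase, were highest in knockout array 1, at 1398.7 and 1222.4, against 717.2 to 761.8 and 724.5 to 765.9 in the other 3 knockout arrays. Timp1, the inhibitor induced in inflamed tissue, read 250.3 in knockout array 1 and 96.1 to 115.5 in the other 3. Mmp3, stromelysin, was dim, between 17.4 and 55.4, and partly below the filter signal of 23.7.

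The fibroblast and progenitor markers themselves differed little. Pdgfra, the PDGF receptor of adipose progenitors, read 563.4, 788.8, 966.9 and 871.6 in the wild-type arrays, 876.1, 970.8, 851.9 and 809.6 in the knockout arrays, and 838.7, 769.0 and 828.0 in the fat rescue arrays. Wild-type array 1 was again lowest, and the other 10 arrays overlapped (knockout against wild type 0.16 ± 0.14, adjusted p = 0.805). Knockout array 1, with the highest fibrillar collagen and collagen VI signals, had Pdgfra within the range of the other knockout arrays. Pi16, a marker of reticular adventitial fibroblasts, lay between 169.5 and 252.5 in all arrays.

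Within genotypes the genes varied together across arrays. With genotype means removed, the median Pearson correlation over 741 pairs of the 39 genes was 0.39, and 28.3% of pairs were above 0.6. Over all pairs of 12709 genes the median was 0.00374 and 5.52% were above 0.6. The first principal component held 46.7% of the variance of the 39 genes, with knockout array 1 at 8.85 and wild-type array 1 at -6.70 at its ends. Averaged over the 39 genes, knockout array 1 was 0.39 above its genotype mean on the log2 scale and wild-type array 1 was 0.32 below its own. Knockout array 1 was the highest of the 11 arrays in 17 of the 39 genes (11.2% of all genes), and wild-type array 1 was the lowest in 20 (15.5% of all genes). Without these 2 arrays the median correlation was 0.0923, with 11.5% of pairs above 0.6, against 0.00759 and 8.74% over all genes. These are descriptions, since the genes share arrays and their scaling.

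By role, the fibrillar collagens had a median correlation of 0.88 over 10 pairs (0.72 to 0.92) and the collagen VI group 0.86 over 6 pairs (0.78 to 0.97). Elastic fibre genes with fibronectin followed at 0.52, proteases and inhibitors at 0.45, basement membrane genes at 0.26, small proteoglycans at 0.23 and matricellular genes at 0.13. Without knockout array 1 and wild-type array 1 the collagen VI group was at 0.65, the fibrillar collagens at 0.20, elastic fibre genes with fibronectin at 0.16, matricellular genes at 0.12, basement membrane genes at 0.09, small proteoglycans at 0.05 and proteases and inhibitors at 0.01. The genes that followed the shared pattern least were Dpt, with a correlation of -0.41 with the mean of the standardized others, Lamb1 at -0.09 and Fmod at 0.12, and Col1a2 followed it most closely at 0.99. For 44 dimmer probe sets of 27 of the genes, the median correlation with the brightest probe set of the same gene was 0.847, and 36 were above 0.6.

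Of 13 planned pairs of chains or partners, 12 were measured, and 8 passed at an adjusted p under 0.05 over the 12 (permutation test, two-sided, 100000 resamples). Where the 2 arrays farthest from the median of the first gene were left out, the genotype means of all 11 arrays were kept; where named arrays were left out, genotype means were taken over the remaining arrays. Col6a1 and Col6a2, chains of one collagen VI molecule, had the closest relation (Pearson r = 0.97, Spearman rho = 0.98, adjusted permutation p = 0.00012 and 0.00024), with r = 0.97 without the 2 arrays farthest from the median of Col6a1. Lox and Eln, the cross-linking enzyme and its substrate, followed (r = 0.93, rho = 0.91, adjusted permutation p = 0.00012 and 0.0018; r = 0.84 without 2 arrays). Col5a1 and Col5a2, chains of collagen V, gave r = 0.92 and rho = 0.85 (adjusted permutation p = 0.00045 and 0.00435; r = 0.83 without 2 arrays). Col6a1 and Col6a3 gave r = 0.87 and rho = 0.82 (adjusted permutation p = 0.00045 and 0.00818; r = 0.84). Col1a1 and Col1a2, which together form collagen I, gave r = 0.91 and rho = 0.85 (adjusted permutation p = 0.000504 and 0.00435; r = 0.77), but r = 0.25 without knockout array 1 and wild-type array 1.

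The other pairs held less well. Col1a1 and Col3a1 gave r = 0.87 and rho = 0.72 (adjusted permutation p = 0.00442 and 0.0283), with r = 0.54 without the 2 farthest arrays (0.19 with genotype means of the remaining arrays). It was 0.35 without knockout array 1 and 0.0063 without knockout array 1 and wild-type array 1, so the relation rests on knockout array 1. Mmp2 and Mmp14 gave r = 0.67 and rho = 0.47 (adjusted permutation p = 0.0326 and 0.223), with r = 0.15 without the 2 farthest arrays, which were knockout array 1 and wild-type array 1; with genotype means of the remaining 9 arrays the sign turned, to -0.72. The relation rests on these 2 arrays. Mmp14 and Timp2 gave r = 0.67 and rho = 0.73 (adjusted permutation p = 0.0326 and 0.0283), with r = 0.72 without the 2 farthest; it did not pass without wild-type array 1 (r = 0.55, adjusted permutation p = 0.133) or with the mean of probe sets (r = 0.31, adjusted permutation p = 0.349). Col4a1 and Col4a2 did not pass (r = 0.41, rho = 0.40, adjusted permutation p = 0.255 and 0.274; r = 0.39 without 2 arrays), but passed with the mean of probe sets, as above, and without fat rescue array 2 (r = 0.66, adjusted permutation p = 0.0483). Mmp3 and Timp1 (r = 0.44, rho = 0.40, adjusted permutation p = 0.232 and 0.274; r = 0.54), Lamb1 and Nid1 (r = 0.10, rho = -0.06, adjusted permutation p = 0.838 and 0.859; r = -0.14) and Dcn and Lum (r = 0.02, rho = 0.18, adjusted permutation p = 0.952 and 0.649; r = 0.38) did not pass either. When values were permuted only within genotypes, an exact test added after the data had been seen, 5 of the 8 passed: the collagen VI pairs, Lox with Eln, Col5a1 with Col5a2 and Col1a1 with Col1a2.

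**Figure D4:**
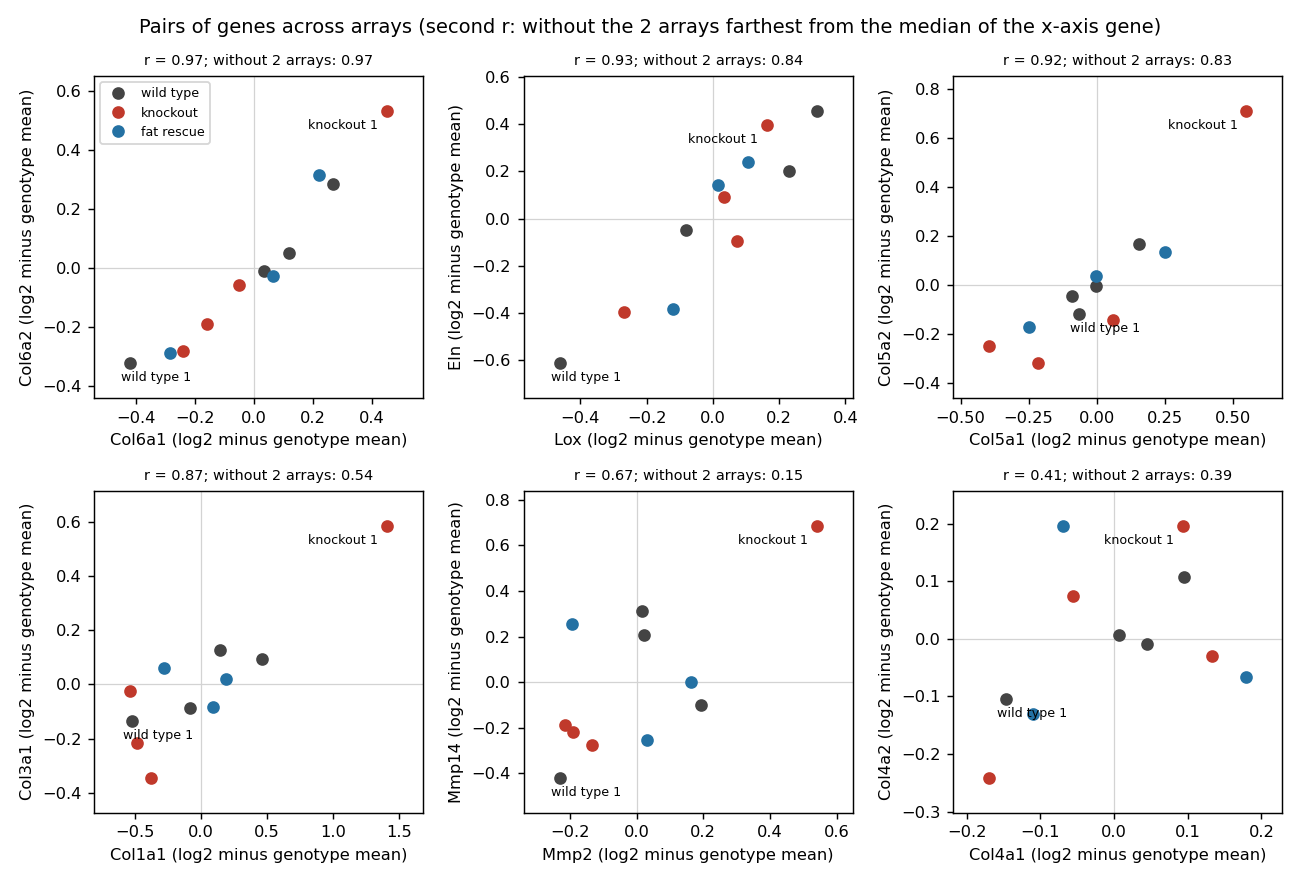
Each dot is 1 array, with the log2 signal of 2 genes minus their genotype means on the axes, for 6 of the 12 pairs. Dots of Col6a1 and Col6a2, Lox and Eln, and Col5a1 and Col5a2 follow a line through the whole range, whereas for Col1a1 with Col3a1 and Mmp2 with Mmp14 knockout array 1 lies far from the others.

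Macrophage markers varied with the matrix genes across arrays. All 17 macrophage genes were measured, and the correlation of their mean with that of the 39 genes over 11 arrays was 0.91 (rho = 0.92), and 0.65 without knockout array 1 and wild-type array 1. Their summed signal was 18870 to 26883 for wild type, 20647 to 42279 for knockout, and 28032 to 33254 in fat rescue, with knockout array 1 the highest and wild-type array 1 the lowest. Lyz2, the lysozyme of myeloid cells, was 9988 in knockout array 1 and 4147 in wild-type array 1. Their means were higher than wild type in 17 of 17 genes in knockout (median 0.21) and in fat rescue (median 0.33), with none past the adjusted threshold (1 and 8 genes at an unadjusted p under 0.05 in limma, where 7.3% and 8.09% of all genes were called, and 4.6% with higher means in fat rescue); over all genes 53.7% and 55.7% had higher means. Centred on array medians, 12 and 17 of 17 had higher means. The mean log2 signal of the 17 genes, minus the wild-type mean, was 0.95, 0.11, -0.10 and 0.13 in the knockout arrays. It was -0.27, 0.25, 0.06 and -0.05 in the wild-type arrays, and 0.35, 0.46 and 0.57 in fat rescue. Apart from knockout array 1, the knockout arrays thus lay within the wild-type range. Smooth muscle and pericyte markers had a correlation of 0.81 with the matrix mean (0.42 without the 2 arrays), lymphocyte markers 0.78 (0.30), endothelial markers 0.40 (0.64), mesothelial markers 0.37 (0.34) and adipocyte markers -0.03 (-0.06). The part of these cells in the variation of the matrix genes was not tested.

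Single matrix genes differed in which markers they followed. The correlation with the macrophage mean was above 0.6 in 19 of the 39, led by Col1a1 at 0.96 and Col6a3 at 0.95, and these were 0.67 and 0.48 without knockout array 1 and wild-type array 1. Over the 39 genes the median correlation with it was 0.58, and 0.31 without those arrays. With the adipocyte mean it was above 0.6 in 2, Sparc at 0.71 and Nid1 at 0.63, and these were 0.79 and 0.64 without the 2 arrays. With the endothelial mean it was above 0.6 in 4: Thbs1 at 0.89, Fbln5 at 0.86, Col4a1 at 0.81 and Lox at 0.61. Without the 2 arrays these were 0.89, 0.83, 0.84 and 0.54. Col4a2, the partner chain of Col4a1, was at 0.11 with that mean (0.03 without the 2 arrays), and Col15a1 at -0.62 (-0.76). With adipocyte markers Dcn was at 0.55 (0.76) and Fmod at -0.72 (-0.71). All these values are of brightest probe sets. The dimmer probe set of Col4a1 had a correlation of only 0.20 with its brightest, and those of Nid1 had 0.18 and -0.46.

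**Figure D5:**
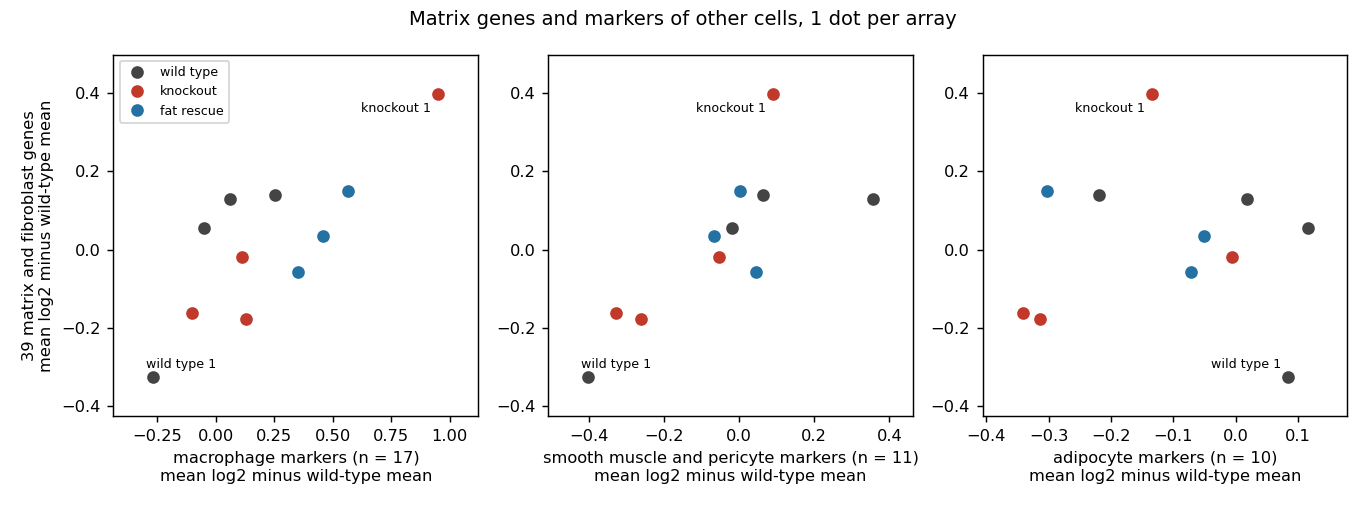
Each dot is 1 array, with the mean of the 39 matrix genes on the vertical axis and that of macrophage (17), smooth muscle and pericyte (11) or adipocyte (10) markers on the horizontal axes, as mean log2 signal minus the wild-type mean. Knockout array 1 and wild-type array 1 lie at opposite ends in the macrophage panel, and no trend is visible against adipocyte markers.

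Outside the 39 genes, those most like their mean were Tmsb10, a thymosin that binds actin monomers (r = 0.99 over 11 arrays, 0.82 without the 2 arrays), Rftn1 (0.98, 0.84), Lrrk1 (0.97, 0.83), Itga5, the fibronectin receptor chain (0.96, 0.58), H2-Oa (0.96, 0.89), Dbf4 (0.96, 0.93), the complement gene C1qa (0.96, 0.82), Smtn of smooth muscle (0.95, 0.77), the secreted glycoprotein Fstl1 (0.95, 0.79) and Pirb (0.94, 0.78). Of 12670 other genes, 242 had a correlation above 0.8 (1.91%), as did 12 of the 39 themselves, each set against the mean of the others (30.8%).

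Related pathway genes gave no call in either direction at the adjusted threshold; at an unadjusted p under 0.05 knockout against wild type called 7.3% of all genes, 3.36% with lower means. Of 18 measured genes for collagen processing, 0 and 2 were higher and lower in knockout than wild type at an unadjusted p under 0.05 (median -0.06); Plod3 and Plod1, lysyl hydroxylases of collagen, differed by -0.26 and -0.33 (adjusted p = 0.683 for both). Of 19 genes of the TGF-beta pathway, which drives matrix synthesis, the counts were 0 and 1 (median -0.04); the exception was Pmepa1, a TGF-beta target that dampens the pathway, at -0.55 in knockout (adjusted p = 0.650) and -0.74 in fat rescue (adjusted p = 0.416). Pmepa1 read 1594, 2697, 2936 and 3518 in wild type and 1378 to 2039 in the other 7 arrays, so that, as for Htra3, wild-type arrays 2, 3 and 4 stood above the rest. Of 18 matrix receptors, 1 was higher and 2 were lower (median -0.07). Itgb1, the shared integrin beta chain, was at -0.26 in knockout (adjusted p = 0.574), and Itga7, a laminin receptor chain, at -0.27 in knockout and -0.50 in fat rescue (adjusted p = 0.631 and 0.180). Of 41 other collagen and matrix genes, 4 were higher and 1 was lower; Prelp, a basement membrane anchoring proteoglycan, was at -0.60 in knockout (adjusted p = 0.409). Of 22 other matrix proteases and inhibitors, 1 was higher and 1 lower, and Mmp12, the macrophage elastase, read 61.2 to 526.0 in wild type, 96.4 to 1119 in knockout and 696.0 to 799.1 in fat rescue (fat rescue against wild type 2.07, adjusted p = 0.545). Of 32 other fibroblast and progenitor genes, 1 was higher and none lower.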

How the data were processed

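Total RNA from the fat of 11 mice was extracted with Trizol, labelled with biotin and hybridised to 1 array each, per the labels' protocols. Each deposited value is the authors' linear signal intensity of a probe set, from GCOS 1.3 and MAS5 per the submitters' processing notes, without detection calls. Its 1 value of 0 was set to 0.1 before log2. Of 45101 probe sets, 34958 had 1 gene symbol, 932 several and 9211 none in the platform annotation. The upper 60% by mean log2 signal were kept, each gene by its brightest probe set (12709 genes). Genotypes were compared with limma 3.58.1 (eBayes with trend, all 11 arrays, two-sided, Benjamini-Hochberg over all genes), in R 4.3.3. Exact permutation tests over arrays and permutation tests of pairs used scipy 1.17.1. Steps were tested on simulated data. Members and lists were chosen with earlier results of these data known. Genes given in every array are the brightest and the one with the smallest F p in each role; others are marked as named after their values were seen. Of other lists, up to 3 genes with the smallest F p, or the 3 brightest markers, could be named. Alternatives were other scalings, filters, pseudocount, probe set rules, variance models, array weights, the replicate number as a block, and arrays left out. MAS5 scaling to a common mean removes global shifts between arrays. The number of arrays limits the precision.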

Additional observations from a re-analysis of the deposited data

Results flagged for a closer look

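Values of single arrays that stand far from the other 3 of their genotype were found in 11 of 78 groups of 4 tested (Dixon's test), where chance flags about 5% of groups; the groups share arrays and are not independent. Knockout array 1 was far above the other knockout arrays in 6 genes: Col1a1 at 6910.6 (others up to 1990.2), Col6a3 at 2586.3 (up to 1439.7), Col14a1 at 588.4 (up to 335.6), Lum at 3823.4 (up to 1831.7), Mmp2 at 1222.4 (up to 765.9) and Mmp14 at 1398.7 (up to 761.8). Wild-type array 1 was far below the other wild-type arrays in 3 genes: Col1a2 at 4427.5 (others from 6268.7), Fbln5 at 765.0 (from 1174.7) and Bgn at 2586.8 (from 3742.5). In knockout array 3, Fbln1 was low at 400.9 (others from 587.6), and in knockout array 2, Htra3 was high at 2308.6 (others up to 1856.7). Macrophage markers were also at their highest in knockout array 1 and lowest in wild-type array 1, and their part in these values was not tested.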

How the results depend on the processing

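Counts of genes past the adjusted threshold were 0 under every alternative run in all comparisons, except in knockout against wild type, where Htra3 made the count 1 without wild-type array 1 and 1 without wild-type array 1 and fat rescue array 1 together, while calls over all genes went from 5 to 14 in both; leaving out single arrays gave 0 to 1 there. Without wild-type array 1 and knockout array 1 together, an alternative chosen with the data in view, the knockout median was -0.23, the median correlation among the genes 0.0923, and 4 pairs passed. Exact permutation within genotypes left 5 pairs. The relation of Mmp2 with Mmp14 turned to -0.72 without these 2 arrays. That of Dcn with Lum, not past the threshold in any setting, was 0.02 and turned to -0.14 with quantile normalization, -0.32 with the mean of probe sets, -0.17 without wild-type array 1 and fat rescue array 1, and -0.56 without wild-type array 1 and knockout array 1; leaving out single arrays gave -0.28 to 0.22, below 0 without wild-type arrays 1 (-0.28) or 4 (-0.03) and knockout arrays 1 (-0.0048), 3 (-0.08) or 4 (-0.03). Lamb1 with Nid1, also not past it, ranged from -0.22 (without fat rescue array 2) to 0.34. Leaving out single arrays gave medians of -0.10 to 0.08 in knockout against wild type, -0.09 to 0.10 in fat rescue against knockout and -0.10 to 0.07 in fat rescue against wild type, correlations of 0.29 to 0.45, and 6 to 8 pairs; the cause of these changes was not tested. With the mean of all probe sets, Col4a1 and Col4a2 had a correlation of 0.77 and passed, as they did without fat rescue array 2 (0.66). Replicate numbers are given by the labels, which do not say whether the numbers pair samples. Same-numbered arrays deviated together by over 0.1 in 4 of 10 pairs (-0.14 to 0.35), and differently numbered pairs ranged from -0.31 to 0.28. The highest value, 0.35, was of wild-type array 1 with fat rescue array 1. Knockout array 1 was at 0.14 with wild-type array 1 and at 0.19 with fat rescue array 1. Of 11 arrays, 5 correlated best with their own number, and shared handling by number was not tested. With the replicate number as a block, 0 of the 39 genes passed in each comparison. None passed without the block either, so no call could be lost. Calls over all genes went from 5 to 8 in knockout against wild type and from 5 to 2 in the F test. They stayed at 2 in fat rescue against wild type and at 0 in fat rescue against knockout. For genes and pairs named singly, 491 of 528 values kept direction and side of the threshold, 22 lost the call, 4 gained it and 11 turned sign. Most of these changes were in pairs. Mmp14 with Timp2 changed in 10 of 18 alternatives, Mmp2 with Mmp14 in 9 and Dcn with Lum in 9. Of the single genes, none of which passed with all arrays, only Htra3 changed, in 2 of 24. Signals near the filter, as of Mmp3, are least precise.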
